A study of Mus musculus with 6 samples.

Results

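The basement membrane and microfibrillar collagens measured here were 7 genes, taken by name from the 31017 gene rows of each deposited single-cell count matrix: Col4a1, Col4a2, Col6a1, Col6a2, Col6a3, Col15a1 and Col18a1. All 7 were found in all 6 libraries. They were described in fibroblasts and their subtypes, in mural cells (pericytes and smooth muscle around vessels) and in blood endothelial cells of mouse knee synovium, the soft tissue around the joint space. The study asked how Notch3 signalling bears on synovial fibroblasts in inflammatory arthritis. Each library was made from pooled synovium of 10 mice. Healthy mice were either Wild Type or Notch3-/- knockout, 1 library each. Arthritic mice gave the other 4 libraries: Wild Type, Notch3-/- knockout, and mice treated with an isotype control or with antiNotch3 monoclonal antibody (below, isotype and antiNotch3). Arthritis was induced with serum from K/BxN mice, an autoimmune strain whose serum inflames the joints of recipients. The strain, age and sex of the mice, the genotype of the antibody-treated mice, the extent of the Notch3 deletion and the antibody doses are not stated in the labels. Every group was 1 library, so a difference between 2 libraries had no replicate check. For the tests below the error combined the disagreement between pairs, genotypes or libraries with a trend over all genes tested, in shares that differed between fits.

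Col4a1 and Col4a2 encode the chains of the most widespread form of collagen IV, which assemble into a network that forms a scaffold of basement membranes together with laminins, nidogens and perlecan. Collagen VI, built from the chains of Col6a1, Col6a2 and Col6a3, forms beaded microfibrils that lie next to basement membranes and around cells. Collagens XV and XVIII, from Col15a1 and Col18a1, are proteoglycan collagens of vascular and epithelial basement membranes, and the end of the collagen XVIII chain is released as endostatin, an inhibitor of vessel growth. In synovium, collagen IV surrounds vessels and is also laid down by lining fibroblasts, and Notch3 is a receptor best known from mural cells and perivascular fibroblasts.

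The start regions are shown because 4 of the genes moved together in endothelial cells and 2 of those share a start. Col4a1 lies on the minus strand and Col4a2 on the plus strand of chromosome 8, head to head, and their annotated transcripts overlap by 22 bases at chr8:11312805-11312826 (GRCm38.p6). Col6a1, Col6a2 and Col18a1 lie on chromosome 10, Col15a1 on chromosome 4 and Col6a3 on chromosome 1. Sequences are RefSeq promoter windows of GRCm38.p6, written 5′ to 3′ on the gene's strand (the plus strand for the shared start), with capitals marking GC boxes (GGGCGG) and CCAAT boxes (CCAAT) on either strand. The Col15a1 stretch is the 250 bases before its start (chr4:47207762-47208011, plus strand), and the Col18a1 stretch is 232 bases upstream of its first annotated start (chr10:77166549-77166780, minus strand).
Col4a1 and Col4a2 shared start: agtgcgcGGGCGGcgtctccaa
Col15a1: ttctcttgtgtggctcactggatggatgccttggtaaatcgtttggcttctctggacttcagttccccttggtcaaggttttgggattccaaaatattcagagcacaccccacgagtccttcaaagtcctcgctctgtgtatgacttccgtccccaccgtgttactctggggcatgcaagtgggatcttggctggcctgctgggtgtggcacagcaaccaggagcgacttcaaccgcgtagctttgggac
Col18a1: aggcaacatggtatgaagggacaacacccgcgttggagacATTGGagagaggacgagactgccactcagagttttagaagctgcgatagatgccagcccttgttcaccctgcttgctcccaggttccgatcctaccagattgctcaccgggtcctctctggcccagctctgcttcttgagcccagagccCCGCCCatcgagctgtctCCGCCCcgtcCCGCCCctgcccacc
The shared start holds 1 GC box and the Col18a1 stretch 3 GC boxes and 1 CCAAT box. The Col15a1 stretch holds neither motif. The 300-base windows around the starts, of which the shared 22 bases are a part, hold 1 GC box and 1 CCAAT box for Col4a1 and 3 and 1 for Col4a2. Of 32851 mouse promoter windows of that length, 35.7% hold a GC box and 37.4% a CCAAT box. The letters TGGGAA, the core bound by the Notch effector RBPJ, are in 25.6% of all windows. Among the windows of the 7 genes they are in 1, at the second annotated start of Col18a1. A match is a description of letters only. Counts were made at the 3′ ends of transcripts and cannot tell the 2 annotated starts of Col18a1 apart.

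The libraries held 2109 to 5096 cell barcodes and 11636998 to 24535233 UMIs (unique molecular identifiers, each counting 1 captured RNA molecule). After filters 17898 cells remained, of which fibroblasts were 1030 to 3572 per library, endothelial cells 122 to 234 and mural cells 9 to 33. Levels are UMIs of a gene per 1000000 UMIs of the cell class (CPM), with 95% Poisson intervals that cover counting error only. Across libraries, 355 barcodes had a sequence found in more than 1 library. Notch3 itself, in mural cells, was at 550 CPM (healthy) and 407 CPM (arthritic) in wild type. In the corresponding knockouts it was at 0 and 28.0 CPM, in isotype at 340 CPM and after antiNotch3 at 203 CPM. The isotype and antiNotch3 values came from 28 and 5 UMIs, with intervals that overlapped (226 to 491 and 65.9 to 473 CPM). In endothelial cells Notch3 was at 0 CPM in arthritic wild type and in the arthritic knockout. It was at 9.004 CPM in isotype and 26.5 CPM after antiNotch3 there, from 9 and 10 UMIs. The healthy endothelial levels were 16.35 CPM in wild type and 1.979 CPM in the knockout. Fibroblast levels lay between 0.1264 and 5.354 CPM. The defining endothelial markers summed to 4308 to 5678 CPM in endothelial cells and to 2.51 to 9.55 CPM in fibroblasts. The myeloid cells, which should lack these collagens, carried 6.16 to 27.7 CPM of Col6a1 and 1.45 to 18.3 CPM of Col4a1, the level that free RNA or mixed droplets could leave.

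Fibroblasts supplied most of the transcripts of all 7 genes, and endothelial cells supplied almost none of the collagen VI. Of the UMIs of Col6a1, Col6a2 and Col6a3 in all cells, 95.1%, 95.1% and 94.2% lay in fibroblasts and 0.232%, 0.218% and 0.359% in endothelial cells. For the basement membrane genes the endothelial share was 10.9% of Col4a1, 13.9% of Col4a2, 15.8% of Col15a1 and 25.4% of Col18a1.

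Collagen VI separated the classes most sharply. Every run of 6 values below gives the healthy pair (wild type, then knockout), the arthritic genotype pair in the same order, and then isotype and antiNotch3. In fibroblasts Col6a1 was at 1178, 672, 732, 733, 1111 and 588 CPM. In mural cells it was at 838, 932, 1085, 798, 1941 and 1379 CPM, and in endothelial cells at 70.8, 43.5, 6.96, 25.2, 65.0 and 23.9 CPM. Every fibroblast and mural level was above every endothelial level. The endothelial values overlapped the myeloid range in 3 of 6 libraries, and the 2 lowest, arthritic wild type and antiNotch3, were also the lowest for summed fibroblast markers in endothelial cells (334 and 175 CPM, against 761 to 2269 CPM in the other libraries). What part those transcripts had in the collagen VI level was not tested.

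The class contrasts were fitted with edgeR on summed counts with the library as a block. The 7 genes and the other listed matrix genes had been kept out of the clustering, though genes that vary with them had not. Between endothelial cells and fibroblasts, 52.7% of 8806 genes tested were called in either direction, and 5 of the 7 collagens were called. The log2 difference, endothelial cells less fibroblasts, was -4.84 for Col6a1 (SE 0.295, adjusted p = 7.14e-12), -4.97 for Col6a2 (SE 0.278) and -4.34 for Col6a3 (SE 0.327). Each was lower in 6 of 6 libraries, with an exact sign-flip permutation p of 0.03125, two-sided, the smallest that 6 libraries allow, and 0.0938 after adjustment over 21 tests.

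Col18a1 was higher in endothelial cells than in fibroblasts by 1.55 (SE 0.370, adjusted p = 0.00128), and Col4a2 by 0.85 (SE 0.302, adjusted p = 0.0229), each in 6 of 6 libraries. The Col4a2 call was lost without arthritic wild type (0.70, adjusted p = 0.0645) and without isotype (0.62, adjusted p = 0.0559). Col4a1 differed by 0.43 (adjusted p = 0.309) and Col15a1 by 0.73 (adjusted p = 0.206), and neither was called. Without healthy wild type the Col15a1 difference was 1.25 (adjusted p = 0.0309), and without the arthritic knockout 1.16 (adjusted p = 0.0498).

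Mural cells held the most collagen IV transcript, with a median over libraries of 793 CPM of Col4a1 against 262 CPM in endothelial cells and 217 CPM in fibroblasts. Between mural cells and fibroblasts 22.1% of the genes tested were called, and 3 of the 7 collagens, all higher in mural cells: Col4a1 by 1.35 (SE 0.387, adjusted p = 0.0141), Col4a2 by 1.70 (SE 0.347, adjusted p = 8.91e-04) and Col18a1 by 2.63 (SE 0.465, adjusted p = 2.14e-04). Collagen VI did not differ past the threshold, with Col6a1 at -0.23 (SE 0.269), Col6a2 at -0.50 (SE 0.254) and Col6a3 at 0.37 (SE 0.30). The antiNotch3 library, with 9 mural cells, was left out of the mural sums of this fit. Between endothelial and mural cells 24% of genes were called, and of the collagens the 3 collagen VI genes, at differences of -4.47 to -4.72. Col4a1 (-0.92, adjusted p = 0.0799), Col4a2 (-0.85, adjusted p = 0.0705) and Col18a1 (-1.08, adjusted p = 0.0704) missed the threshold there, though some alternatives called them.

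**Figure D1:**
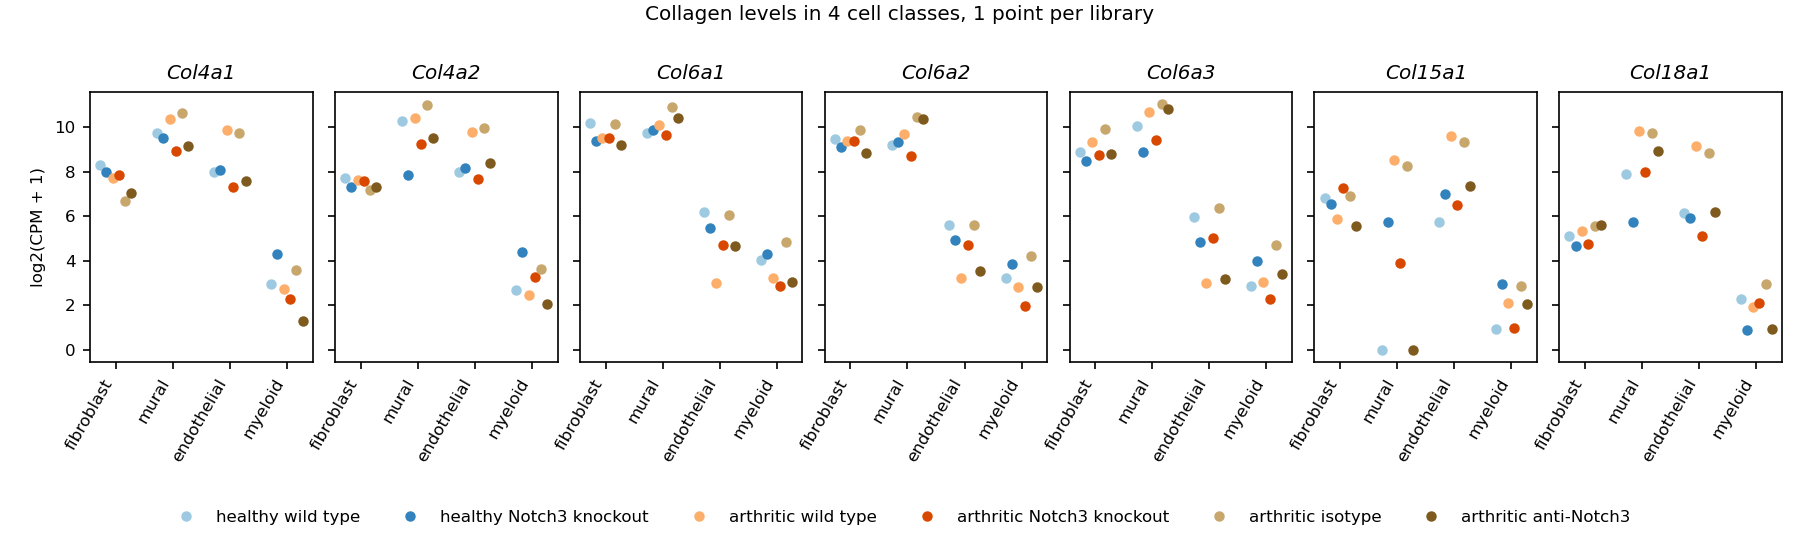
Levels of the 7 collagens as log2(CPM + 1) in fibroblasts, mural, endothelial and myeloid cells, with 1 point per library coloured by group. Collagen VI is at 588 CPM or more for Col6a1 in every fibroblast and mural sum and at 70.8 CPM or less in every endothelial sum, while arthritic wild type and isotype stand apart in endothelial Col4a1, Col4a2, Col15a1 and Col18a1.

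Among the fibroblast subtypes, collagen IV and collagen XV were highest, by median over libraries, in the subtype led by Ccl11 and Smoc2. Col4a1 there was at 893, 707, 516, 469, 364 and 337 CPM, and at a median over libraries of 34.4 to 222 CPM in the other fibroblast subtypes. The values were higher in both healthy libraries than in any arthritic one. Col15a1 there was at 334, 345, 265, 379, 398 and 182 CPM. In the subtype led by Tnn and Acan it was at 276 CPM in isotype and in arthritic wild type, above the Ccl11 and Smoc2 value of the latter. Against these, lining-like fibroblasts, the layer that faces the joint space (leading genes Prg4, Clic5 and Tspan15), held a median of 4.01 CPM. Collagen IV did not follow that contrast, since lining-like cells held a median of 222 CPM of Col4a1 (range 169 to 281) and 209 CPM of Col4a2 (range 189 to 363).

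Collagen VI had another order. The subtype led by Tnn and Acan, genes of fibrous cartilage, was highest, with 1983 CPM of Col6a1, 1658 of Col6a2 and 1575 of Col6a3 in the isotype library, which gave 507 of its 544 cells. In the 23 such cells of arthritic wild type the levels were 2153, 1808 and 1557 CPM. The lining-like cells were lowest, with medians over libraries of 300.3 CPM for Col6a1, 211 for Col6a2 and 172 for Col6a3. The subtype led by Pi16 was next lowest for Col6a3, at 224 to 281 CPM in all 6 libraries, and its neighbour in that order, led by Scrg1 and Inmt, was at 278 to 318 CPM in 5 libraries, ranges that touch. These levels are a description without a test.

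**Figure D2:**
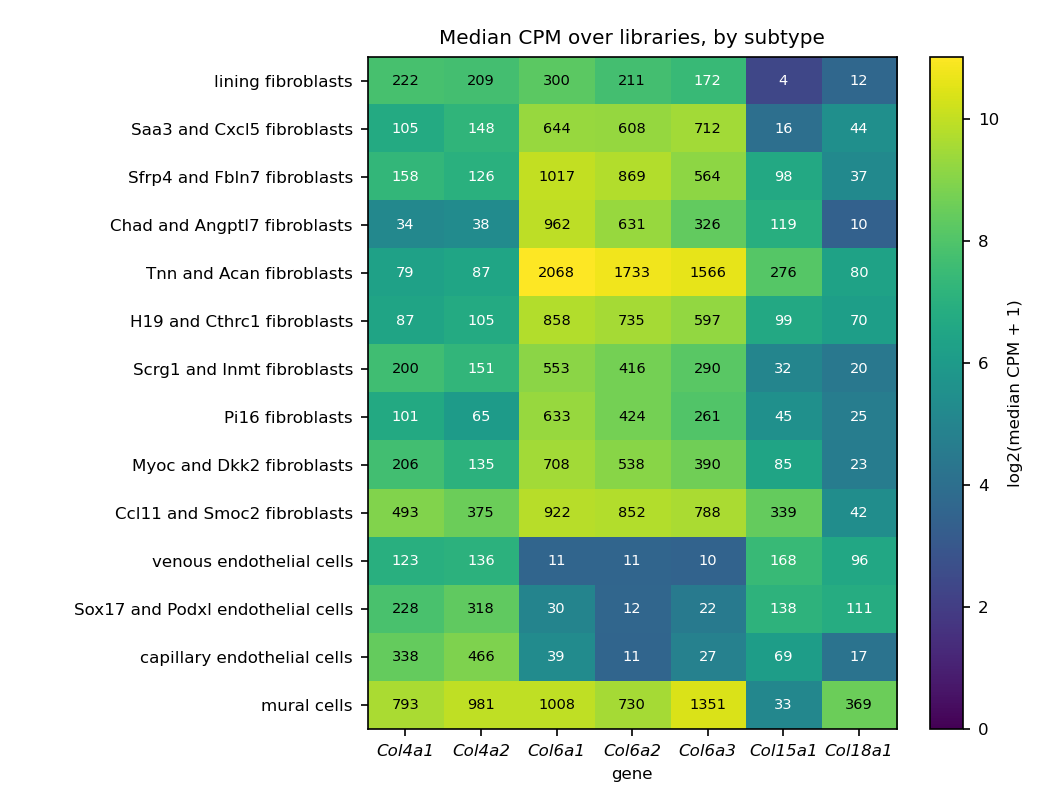
Median CPM over libraries with at least 20 cells, printed in each field and coloured as log2(median CPM + 1), for 10 fibroblast subtypes, 3 endothelial subtypes and mural cells (rows) and the 7 collagens (columns); mural cells are shown with all 6 libraries, and the Tnn and Acan subtype rests on 2. Col4a1 is highest in mural cells (793) and in Ccl11 and Smoc2 fibroblasts (493), and the 3 endothelial rows hold 10.4 to 38.5 CPM of each collagen VI gene.

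In endothelial cells the 4 basement membrane genes were high in arthritic wild type and isotype, the 2 arthritic libraries without Notch3 targeting, and low in the other 4. Col4a1 stood at 252 CPM (212 to 298) and 271 CPM (228 to 320) in the healthy wild type and knockout. In arthritis it stood at 924 CPM (856 to 998) in wild type against 157 CPM (125 to 195) in the knockout, and at 861 CPM (805 to 921) in isotype against 191 CPM (149 to 240) after antiNotch3. Col4a2 was at 254, 285, 876, 202, 1010 and 334 CPM. Both untargeted arthritic values lay above every other library with counting intervals that did not overlap. The arthritic knockout lay below both healthy libraries for each gene.

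Col15a1 was at 52.7, 125, 767, 89.3, 645 and 162 CPM. Col18a1 was at 69.0, 59.4, 575, 33.0, 457 and 71.6 CPM, from 38, 30, 413, 17, 457 and 27 UMIs. The upper interval bound of the other 4 libraries was at most 208 CPM for Col15a1 and 104 CPM for Col18a1, below the lower bounds of the 2 high libraries.

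**Figure D3:**
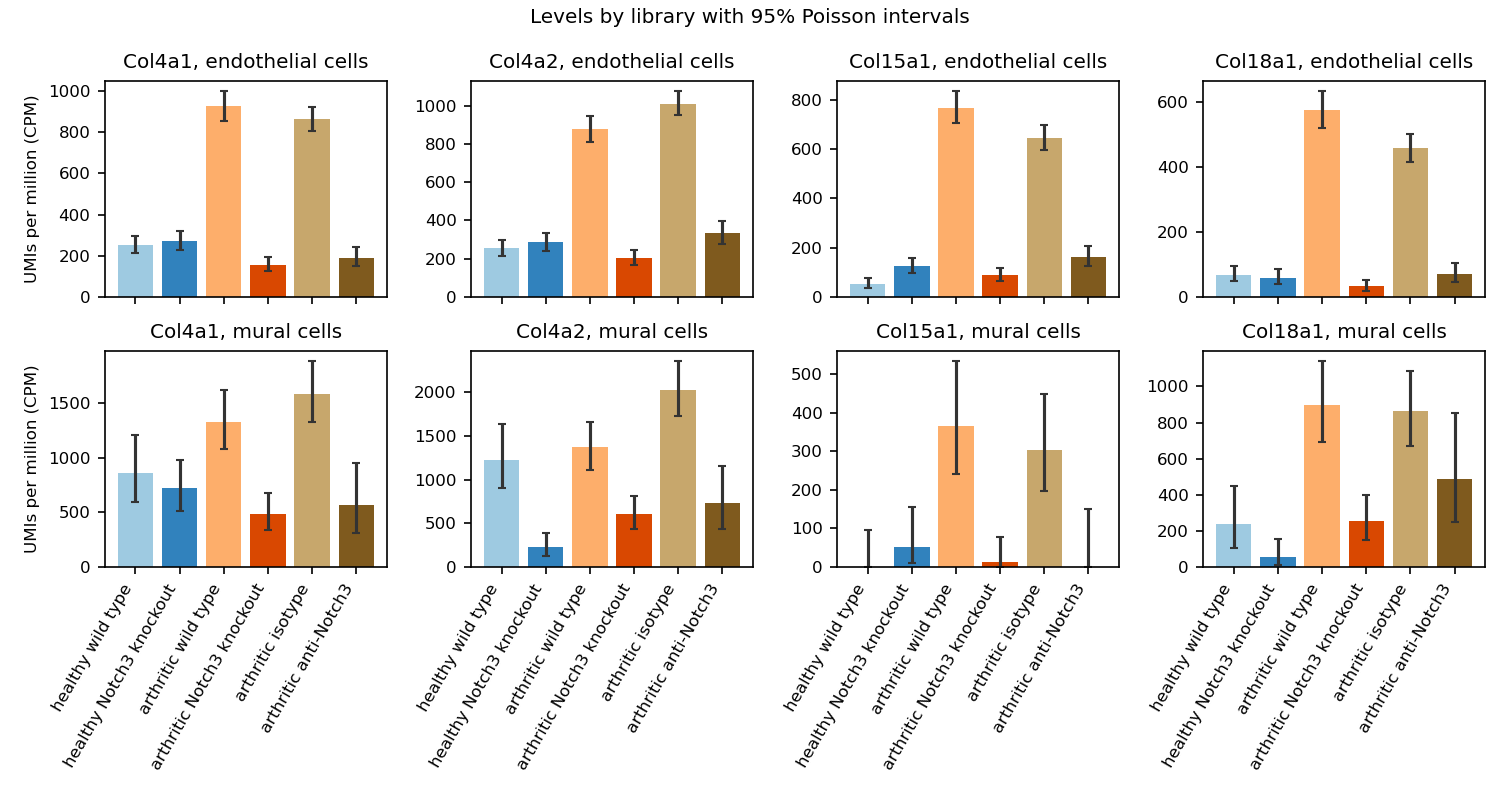
Levels in CPM (bars) with 95% Poisson intervals of Col4a1, Col4a2, Col15a1 and Col18a1 in endothelial cells (top) and mural cells (bottom) of the 6 libraries. In endothelial cells arthritic wild type and isotype stand above the other 4 libraries in all 4 panels, by 924 and 861 against at most 271 CPM for Col4a1; mural intervals are wide because a sum holds 9 to 33 cells.

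Notch3 targeting was tested in the 2 arthritic pairs, knockout against wild type and antiNotch3 against isotype, as repeats of one effect although they are different interventions (edgeR, pair as a block, 1 residual degree of freedom). In endothelial cells 4.8% of 6682 genes were called lower, and so were 4 of the 7 collagens. The log2 change was -3.26 for Col18a1 (SE 0.303, adjusted p = 9.36e-08), -2.44 for Col15a1 (SE 0.267, adjusted p = 7.06e-07), -2.27 for Col4a1 (SE 0.236, adjusted p = 3.34e-07) and -1.76 for Col4a2 (SE 0.232, adjusted p = 1.10e-05). All 4 calls held under the 11 alternatives run, with adjusted p up to 0.0107. The median change of the 7 collagens was -1.76, beside -0.01 over all genes tested. Both pairs moved down, with log2 ratios of -2.55 and -2.17 for Col4a1, -2.11 and -1.59 for Col4a2, -3.09 and -1.99 for Col15a1, and -4.09 and -2.66 for Col18a1, knockout pair first. The 3 collagen VI genes were not called (-0.18, -0.30 and -0.67 for Col6a1, Col6a2 and Col6a3), and the pairs disagreed: from 3 to 81 UMIs per library, the ratios were 1.74, 1.51 and 2.04 in the knockout pair and -1.42, -2.08 and -3.24 in the antibody pair. The summed fibroblast markers in these cells went the same way in each pair. Without the capillary-like cells, and without arthritic wild type in a fit with no pair term, Col6a3 was called lower (-1.58, adjusted p = 0.0326, and -1.84, adjusted p = 1.56e-04), and in the latter Col6a1 too (-1.29, adjusted p = 0.024).

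Several measures moved with the fall of the basement membrane genes. Arthritic wild type and isotype held 4 and 18 capillary-like endothelial cells (leading genes Gpihbp1, Fabp4 and Car4), of 122 and 213, against 115 of 234 in the arthritic knockout and 43 of 124 after antiNotch3. Their endothelial cells were also deeper, with a median of 5627 and 3867 UMIs per cell against 1812 and 2734. A list of 16 dissociation stress genes summed to 14380 and 19320 CPM in their endothelial cells and to 36200 and 27100 CPM in the targeted ones, and 11 of the 16 were called higher, where 8.19% of all genes tested were. In the healthy pair the stress sum was 21770 in wild type and 34450 in knockout, where Col4a1 stood at 252 and 271 CPM. What part depth and stress had in the arthritic difference was not tested.

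Fits within endothelial subtypes, chosen after the data were seen, hold the named subtype fixed but not the mix of cells inside it. In the subtype led by Sox17 and Podxl, with 40 to 109 cells in the arthritic libraries, Col4a1 was at 201, 235, 1201, 221, 1112 and 219 CPM, and Col18a1 at 104, 101, 578, 83.7, 489 and 118 CPM. The other 4 libraries reached at most 235 CPM for Col4a1 and 118 CPM for Col18a1, so the groups did not overlap. Here 3.95% of 4026 genes were called lower, and all 4 basement membrane genes were, with changes of -2.35 for Col4a1 (SE 0.197, adjusted p = 2.50e-04), -2.16 for Col4a2 (SE 0.204), -2.62 for Col15a1 (SE 0.285) and -2.39 for Col18a1 (SE 0.287). Adjusted p was at most 0.00129. The collagen VI genes were too low there to be tested. Depth differed within this subtype too. The median was 5311 UMIs per cell in arthritic wild type and 3939 in isotype, against 2063 in the arthritic knockout and 2308 after antiNotch3. The part of depth was not tested.

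Venous-like cells (leading genes Selp, Lrg1 and Vwf; 41 to 86 in the arthritic libraries) showed the same order. Col4a1 was at 98.2, 143, 649, 6.46, 580 and 103 CPM, the arthritic knockout value from 1 UMI in 53 cells. Col18a1 was at 116, 37.1, 583, 12.9, 448 and 77.2 CPM. Of 3795 genes 1.29% were called lower, and the changes of the 4 genes were -3.38 for Col4a1 (SE 0.534, adjusted p = 0.0115), -2.47 for Col4a2 (SE 0.324), -2.17 for Col15a1 (SE 0.285) and -3.36 for Col18a1 (SE 0.479), all called lower. With DESeq2 the venous-like calls of Col4a1 (adjusted p = 0.182) and Col18a1 (adjusted p = 0.0787) were lost. Capillary-like cells were too few in arthritic wild type for a fit. Their Col4a1 levels, 391, 563, 413, 222, 202 and 286 CPM, rested on 3 UMIs in arthritic wild type and 6 in isotype, and no rise in those 2 libraries was seen. With the capillary-like cluster left out, Col4a1 in the remaining endothelial cells changed by -2.67 (SE 0.224, adjusted p = 1.23e-29). That p-value rested almost wholly on the trend over all genes tested, and hardly on the disagreement between pairs for Col4a1.

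**Figure D4:**
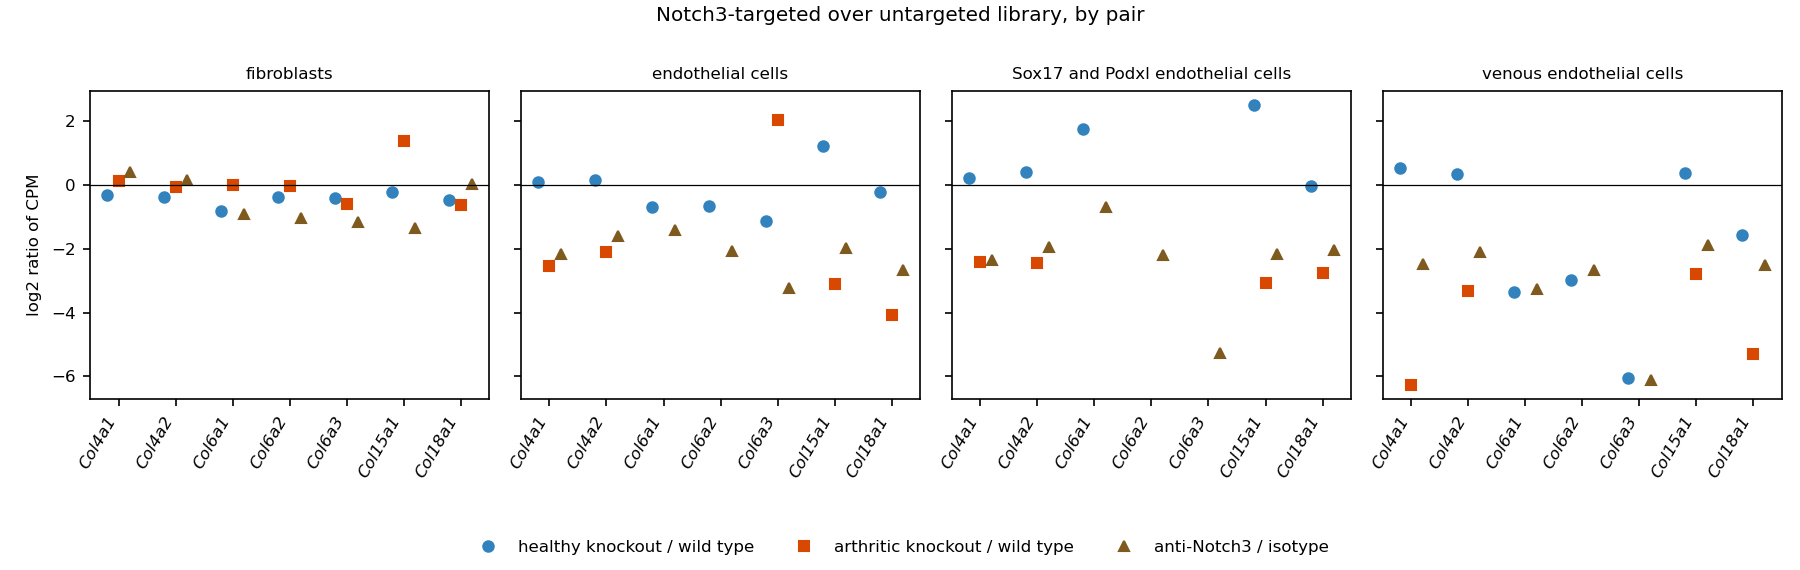
Log2 ratio of the Notch3-targeted over the untargeted library (y axis, CPM with 0.5 UMIs added) for each collagen (x axis), in fibroblasts, all endothelial cells and 2 endothelial subtypes; symbols mark the healthy knockout, arthritic knockout and antibody pairs, and ratios from fewer than 20 UMIs are left out. Both arthritic pairs lie below 0 for Col4a1, Col4a2, Col15a1 and Col18a1 in every endothelial panel, where the healthy pair lies near or above 0 for Col4a1 (0.10 in all endothelial cells) and Col15a1 (1.23); for Col18a1 it lies at -0.21 in all endothelial cells and at -1.57 in venous-like cells.

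In the healthy pair the log2 ratios of knockout to wild type over all endothelial cells were 0.10 for Col4a1, 0.16 for Col4a2, 1.23 for Col15a1 and -0.21 for Col18a1. Within venous-like cells the healthy Col18a1 ratio was -1.57, from 20 and 7 UMIs, the same direction as in the arthritic pairs. In a fit of all 6 libraries with separate Notch3 effects, also added after the data were seen, the effect in the arthritic pairs differed from that in the healthy pair for the same 4 genes, where 3.16% of 7638 genes were called lower. In fibroblasts 0.794% of 13346 genes and none of the 7 collagens were called for that difference. The difference was -2.55 for Col4a1 (SE 0.440, adjusted p = 7.67e-07), -2.10 for Col4a2 (SE 0.437), -3.86 for Col15a1 (SE 0.50) and -3.22 for Col18a1 (SE 0.534). In the fit with separate effects the healthy pair was fitted exactly and added nothing to the error. For endothelial cells that error came almost wholly from the trend over all genes tested. With all 3 pairs treated as repeats, 0% of 6780 genes were called by edgeR, none of the collagens among them. There 561 genes had an unadjusted p under 0.05, and DESeq2 called 25. The 4 genes were called in 2 of the 7 alternatives to that fit, with no filter on low counts and without the healthy pair.

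Between arthritic and healthy endothelial cells, the 4 basement membrane genes had log2 ratios above 0 in wild type and below 0 in the knockouts. The knockout ratios of Col15a1 and Col4a2 were within 1.5-fold. In wild type, endothelial levels were higher in arthritis at log2 ratios of 3.84 for Col15a1, 3.04 for Col18a1, 1.87 for Col4a1 and 1.78 for Col4a2, where 19.1% of 6822 genes were at least 1.5-fold higher. In the knockouts the same ratios were -0.48, -0.83, -0.78 and -0.50, and 13% of 5727 genes were at least 1.5-fold lower, Col4a1 and Col18a1 among them. Collagen VI was lower in arthritis in wild type, at -3.21 for Col6a1, -2.39 for Col6a2 and -3.01 for Col6a3, where 26.3% of genes were at least 1.5-fold lower. In the knockouts these ratios were -0.76, -0.23 and 0.16. Endothelial cells of arthritic wild type held 6.96, 8.35 and 6.96 CPM of Col6a1, Col6a2 and Col6a3, each within the myeloid range of that gene. Summed fibroblast markers in endothelial cells were at 1319 CPM in healthy and 334 CPM in arthritic wild type. Their part in the collagen VI ratios was not tested. The wild-type comparison shares libraries with the Notch3 comparisons above. A joint test of arthritis over both genotypes (edgeR) called 0.111% of 6280 genes and none of the collagens. The collagen with the smallest p there was Col6a1, at -1.90 (SE 0.570, adjusted p = 0.352), and Col15a1 was at 1.74 (SE 0.680, adjusted p = 0.993). That test takes the disagreement between genotypes as part of its error.

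Mural cells were too few for a test of Notch3 or arthritis. Col4a1 was at 864, 721, 1329, 490, 1589 and 568 CPM, from 33, 41, 98, 35, 131 and 14 UMIs. Col18a1 was at 236, 52.8, 895, 252, 861 and 487 CPM, and Col15a1 at 0, 52.8, 366, 14, 303 and 0 CPM, from 0, 3, 27, 1, 25 and 0 UMIs. Arthritic wild type and isotype were the highest libraries for each of the 3 genes, as in endothelial cells. A count of 0 Col15a1 UMIs allowed up to 96.6 CPM in healthy wild type and 150 CPM after antiNotch3 by the exact interval. Col4a2 was at 1231, 229, 1370, 602, 2025 and 730 CPM, from 47, 13, 101, 43, 167 and 18 UMIs, and its lowest library was the healthy knockout. In the arthritic pairs the ratios of targeted to untargeted were below 0 for Col4a1 (-1.43 and -1.47), Col4a2 (-1.18 and -1.46) and Col18a1 (-1.80 and -0.81), where 27.8% and 30.3% of measured genes were at least 1.5-fold lower. The healthy pair was lower too, by more for Col4a2 (-2.38) and at -0.26 for Col4a1, where 15.1% of measured genes were at least 1.5-fold lower. Its Col18a1 ratio of -1.96 rested on 9 and 3 UMIs. The Col6a1, Col6a2 and Col6a3 ratios were -0.44, -0.97 and -1.24 in the knockout pair and -0.49, -0.12 and -0.20 in the antibody pair. Fibroblast markers in mural cells were also highest in arthritic wild type and isotype, at 5478 and 5470 CPM against 1460 to 2550 elsewhere, as were the mural markers themselves, at 15700 and 12690 against 7197 to 10110 CPM. Neutrophil markers were at 1546 CPM in arthritic wild type and at most 14 CPM elsewhere. Their part in the mural values was not tested.

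In fibroblasts as a class, none of the 7 collagens was called for Notch3 targeting in the arthritic pairs, where 3.25% of 11748 genes were. Col6a3 was at 475, 359, 645, 424, 971 and 437 CPM, lower in both targeted arthritic libraries than in their partners, and its change was -0.81 (SE 0.221, adjusted p = 0.123; 0.0363 with no filter on low counts). Col6a1 changed by -0.39 (SE 0.274) and Col6a2 by -0.47 (SE 0.285): their log2 ratios were 0.00 and -0.04 in the knockout pair and -0.92 and -1.04 in the antibody pair. Col15a1, at 110, 93.6, 58.3, 151, 117 and 46.1 CPM, moved in opposite directions, with log2 ratios of 1.37 in the knockout pair and -1.35 in the antibody pair. Col4a1 was at 309, 250, 207, 226, 101 and 132 CPM, Col4a2 at 208, 158, 198, 191, 141 and 157 CPM, and their changes were 0.33 (SE 0.168) and 0.12 (SE 0.166). Col18a1 lay between 24.2 and 47.7 CPM. The median change of the 7 was -0.22, beside -0.00 over all genes. Subtypes high in collagen IV or XV held different shares of the class. Ccl11 and Smoc2 cells were 6.21% and 2.29% of fibroblasts in the untargeted arthritic libraries and 29.1% and 13.7% in the targeted ones. Tnn and Acan cells, with 276 CPM of Col15a1 in arthritic wild type and in isotype, went the other way. They were 2.23% and 24.7% of fibroblasts in these libraries and 0% and 1.22% in the targeted ones. What part these shares had in the class levels was not tested.

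Among 4 subtypes with enough cells for a test, 1 of the 7 genes was called, in 1 subtype. In lining-like fibroblasts Col6a3 was at 85.6, 87.8, 267, 86.4, 545 and 256 CPM, lower in each targeted arthritic library than in its partner, and it was called lower, as were 0.487% of 8015 genes, with a change of -1.30 (SE 0.201, adjusted p = 0.0249). DESeq2 gave -1.32 with an adjusted p of 0.0735. The targeted and untargeted groups did not overlap, though the antiNotch3 value was just under that of arthritic wild type. Col6a1 (-0.57, adjusted p = 0.298) and Col6a2 (-0.62, adjusted p = 0.256) were not called there. In the subtype led by Sfrp4 and Fbln7 Col6a3 changed by -0.72 (adjusted p = 0.0827), with 0.791% of 5686 genes called. None of the 7 was called in the subtypes led by Ccl11 and Smoc2 (0.137% of 4390 genes called) or Pi16 (0.768% of 5340).

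Over all 3 pairs 0% of 12767 genes were called in fibroblasts by edgeR, with 1047 at an unadjusted p under 0.05 and 167 called by DESeq2, none of these collagens among them. For arthritis over both genotypes 0% of 12325 genes were called, 314 at an unadjusted p under 0.05 and 7 by DESeq2. The fibroblast values of the 7 genes there ranged from -0.33 (Col4a1) to 0.37 (Col6a3), beside the opposing Col15a1 ratios of -0.92 in wild type and 0.69 in the knockouts.

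The other genes of the basement membrane moved in part with collagen IV in endothelial cells. Of 10 of 15 listed partners that were tested in the arthritic pairs, 6 fell and 1 rose, where 4.8% of all genes were called lower and 8.19% higher. The list median was -0.98, beside -0.01 over all genes. The laminin chain genes Lama4 (-1.44), Lamb1 (-1.87) and Lamc1 (-1.20) fell, as did the nidogen Nid2 (-1.82), perlecan Hspg2 (-0.97) and the collagen-binding glycoprotein Sparc (-0.996). Lamb1 was at 7.27, 21.8, 145, 23.3, 168 and 61.0 CPM, and Hspg2 at 205, 202, 457, 194, 421 and 228 CPM, both highest in arthritic wild type and isotype. Lamb2, another laminin beta chain, rose by 1.57 (SE 0.293, adjusted p = 5.86e-04), from 92.6, 113, 29.2, 93.1, 40.02 and 101 CPM. Nid1 (-0.38) and Lama5 (-0.42) did not pass the test. These are changes of the whole endothelial class, whose subtype mix differed between the groups as given above. Within Sox17 and Podxl cells the same 7 of 10 partners were called, 6 lower and 1 higher. There 3.95% of all genes tested were called lower and 216 of 4026 higher. Within venous-like cells 1 of 8 was called, Sparc, lower, where 1.29% of all genes tested were called lower.

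Of 12 tested genes of collagen processing and export, 2 fell and none rose, against the same shares of 4.8% and 8.19% over all genes: Serpinh1, the collagen chaperone HSP47 (-1.13, SE 0.221, adjusted p = 9.74e-04), and P3h2, a prolyl 3-hydroxylase of collagen IV (-1.86, SE 0.448, adjusted p = 0.00639). Among 7 tested receptors the integrin genes Itga5 (-1.34) and Itgb3 (-1.95) fell and Itga1, a subunit of a collagen IV receptor, rose (1.65). Itga1 was at 229, 133, 29.2, 142, 61.0 and 122 CPM, lowest where collagen IV was highest. Within Sox17 and Podxl cells and within venous-like cells 0 of 5 tested receptors were called by edgeR, where 375 of 4026 and 151 of 3795 genes were. Of 6 tested proteases, Mmp14 (-3.30), Mmp2 (-1.71) and Bmp1 (-1.78) fell. Mmp14 and Bmp1 were also called lower within Sox17 and Podxl cells, and Serpinh1 within both subtypes. None of the 7 tested collagen VI and microfibril partners was called in the whole class.

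The same lists were read in fibroblasts of the arthritic pairs, where 1.88% of all genes were called higher and 1.37% lower, and where subtype shares differed between the groups. Of 14 tested basement membrane partners 3 rose, Lama2 (1.11), Lamb2 (1.26) and the collagen IV chain Col4a5 (1.69), and Lamb1 fell (-0.98). Col4a5 was at 91.8, 82.1, 26.2, 81.3, 14.7 and 45.3 CPM, lowest in arthritic wild type and isotype. Of 17 processing genes 4 fell: Plod2 (-2.09) and Lox (-2.35), which act in collagen crosslinking, P4ha3 (-1.06) and peroxidasin Pxdn (-1.26), which crosslinks collagen IV. The microfibril genes Fbn2 (-2.72) and Mfap4 (-1.88) fell among 11 tested, and the proteases Mmp3 (-3.83) and Mmp2 (-1.19) among 7. Of 12 receptors, Itga6 rose (0.90) and Antxr1, a receptor that binds collagen VI, fell (-0.99). The collagen genes themselves did not pass the test in this class. Within the 4 tested subtypes few of these calls were made. No basement membrane partner was called in Ccl11 and Smoc2, lining-like or Sfrp4 and Fbln7 cells. In Pi16 cells 1 of 9 was, Nid1, lower, where 25 of 5340 genes were called lower. Processing genes were called in lining-like cells alone among the 4. There Plod2, Loxl1 and Lox were lower (3 of 15), as were 0.487% of all genes tested. Lining-like cells also had Antxr1, Mmp2 and Mmp3 called lower.

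Likeness of pattern was measured as Pearson's r of log2(CPM + 1) over 71 sums of subtype and library, among 5455 genes. Sums of a library share its depth and free RNA, and the values are a description. Col4a1 and Col4a2, with the shared start printed above, were each other's nearest gene (r = 0.891), followed by Ifi203 for Col4a1 (0.624) and Sparcl1 for Col4a2 (0.708). Col6a1 was nearest to Col6a2 (0.937), Prrx1 (0.928) and Col6a3 (0.928). Col6a2 also resembled Cd63 (0.914) and Col5a2 (0.907), and Col6a3 resembled Col5a2 (0.864). Col15a1 was nearest to Tmsb10 (0.730), Spry1 (0.680) and Hspg2 (0.651), and Col18a1 to Cald1 (0.742), St3gal4 (0.717) and Ifitm3 (0.670).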

How the data were processed

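The authors deposited UMI counts per gene and barcode from 10x Single Cell 3′ libraries, for which the labels' protocols give 7000 cells loaded; the submitters' processing notes name Cell Ranger 3.0.2 and mm10. Barcodes with over 10% mitochondrial UMIs (414) and called doublets (179, scrublet; 3 in isotype, 103 in healthy knockout, an uneven yield) were dropped. Cells were clustered (scanpy 1.11.5, Leiden, 2000 variable genes without the 7 collagens and listed matrix genes) and placed by markers. A cluster of 174 cells led by Slurp1 and Hhip (0.0839% to 1.63% of a library's cells) was kept out of the fibroblasts, a choice made after seeing the data. Counts summed per library and class were tested with edgeR 4.0.16 (TMM, quasi-likelihood; adjusted p under 0.05, Benjamini-Hochberg over all genes tested), with DESeq2 1.42.0 as an alternative. The fits of the fibroblast arthritic pairs and of endothelial cells against fibroblasts were tested on simulated data. These had the same spread for every gene and no difference in subtype mix. The other fits, among them the endothelial Notch3 fits, were not simulated. The text names the 7 collagens, called or listed matrix genes and the 3 most alike genes per collagen. Members, lists and comparisons were chosen with earlier results of these data known. Nothing ties a library to separate animals, so p-values do not measure the spread between mice. They rest on the disagreement between pairs, genotypes or libraries of pooled mice, which edgeR moderates towards a trend over all genes tested. With 1 residual degree of freedom, a gene's own disagreement was only part of that error, and its part differed between fits. It was close to none in the endothelial fit of 6 libraries with separate Notch3 effects, and in that without the capillary-like cluster. There p-values were close to those of a normal curve at the SE given, and rested almost wholly on the trend.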

Additional observations from a re-analysis of the deposited data

Results flagged for a closer look

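The Notch3 effect in endothelial cells differed between the arthritic pairs and the healthy pair for 4 of the 7 collagens. This was a test of the difference itself in a fit of 6 libraries with 1 residual degree of freedom (edgeR). There 3.16% of 7638 genes were called lower. The difference of the log2 effects was -2.55 for Col4a1 (adjusted p = 7.67e-07), -2.10 for Col4a2 (adjusted p = 9.01e-05), -3.86 for Col15a1 (adjusted p = 4.88e-12) and -3.22 for Col18a1 (adjusted p = 2.05e-07). All 4 were called under the 4 alternatives run, with adjusted p up to 0.0197. The healthy pair is 2 libraries with a Notch3 effect of its own in that fit, so it was fitted exactly and added nothing to the error. The 1 residual degree of freedom came from the disagreement between the arthritic pairs. For these 4 genes the p-values were close to those of a normal curve at their SE. The error thus came almost wholly from the trend over all genes tested, and a gene's own disagreement added almost nothing. Endothelial cells of the healthy wild type carried 17590 CPM of erythroid transcripts, against at most 44.6 CPM in the other libraries. The part of these in the difference was not tested.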

How the results depend on the processing

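No analysis paired by animal or replicate was possible, because the labels give no replicate numbers and each group is 1 library. The pairs used as blocks in the Notch3 tests are matched by condition. Causes of the changes below were not tested. Of the values for single genes, 1055 were labelled unchanged, 27 gained a call, 16 lost one and 35 reversed. The unchanged values include log2 ratios without a test, compared between pseudocounts of 0.5 and 5 UMIs by their counting error. They also include fits without an adjusted p, read by direction only. Losses under the sign-flip permutation were fixed in advance, since its adjusted p could not pass 0.05 (smallest 0.0938). Of the counts of called genes, 63 stayed within 1.5 times and 42 did not. The endothelial calls of Col4a1, Col4a2, Col15a1 and Col18a1 in the arthritic pairs held under all 11 alternatives. Depth limits collagen VI in endothelial cells and every mural value.

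The fibroblast count in the arthritic pairs, 382, was 1079 with no filter on low counts, 815 without the tendon-led and fibrocartilage-led clusters and, in alternatives added after seeing the data, 6 with no pair term, then 0 without the knockout, 90 without isotype and 5 without antiNotch3. Over 3 pairs it was 0, but 167 with DESeq2, 49 with no filter, 382 without the healthy pair and 3 without the antibody pair. The endothelial count, 868, was 212 with DESeq2, 512 with no pair term and 269 when the knockout was also left out. Over 3 pairs it was 0, but 25 with DESeq2, 246 with no filter, 868 without the healthy pair and 17 without the antibody pair. For arthritis, fibroblasts went from 0 to 7 with DESeq2 and 7 with no filter, and endothelial cells from 7 to 1, 34 and, with 6 libraries, 0. With DESeq2, Ccl11 and Smoc2 fibroblasts went from 6 to 1, lining-like from 48 to 10, Sfrp4 and Fbln7 from 45 to 2, Pi16 from 41 to 3, Sox17 and Podxl endothelium from 375 to 115 and venous-like from 151 to 66. With no filter these counts were 23, 218, within 1.5 times, 64, 600 and 331. With RLE scaling Ccl11 and Smoc2 gave 3, Sfrp4 and Fbln7 20 and Pi16 74. The count for the difference between arthritic and healthy pairs went from 556 to 72 in endothelial cells with DESeq2, and in fibroblasts from 106 to 181 with DESeq2, 67 with RLE, 750 with no filter, 447 without tendon-led and fibrocartilage-led clusters and 180 with doublets kept.

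Reversals in fibroblasts of the arthritic pairs came with no pair term: without the knockout Col4a1 -0.21, Col4a2 -0.10, Col15a1 -0.90 and Col18a1 0.17, without isotype Col4a1 -0.17 and Col4a2 -0.16, and without wild type Col15a1 -0.12. Over 3 pairs, Col4a2 was 0.12 and Col15a1 0.084 without the healthy pair, Col4a1 -0.017 and Col15a1 0.63 without the antibody pair, and Col15a1 0.40 without the tendon-led and fibrocartilage-led clusters. In endothelial cells of the arthritic pairs Col6a1 was 0.18 with DESeq2; without isotype and the pair term Col6a1, Col6a2 and Col6a3 were 1.83, 1.17 and 1.57, and with doublets kept 0.90, 0.65 and 0.0092. Over 3 pairs they were 0.34, 0.34 and 0.27 without the antibody pair, and Col6a1 and Col6a2 0.48 and 0.38 with doublets kept. Col15a1 in fibroblasts was 0.077 for arthritis with 6 libraries. With no filter Col4a1 in Ccl11 and Smoc2 cells was 0.0053 and Col6a3 in Pi16 cells 0.017. Col6a2 was 0.20 for the fibroblast difference between pairs without the tendon-led and fibrocartilage-led clusters. Between mural cells and fibroblasts Col6a1 was 0.0039 with DESeq2, 0.0077 with RLE and 0.30 as a mean over libraries, where Col6a2 was 0.035. With 1 library left out Col6a1 ranged from -0.27 (without arthritic wild type) to 0.069 (without healthy wild type). Col15a1 ranged from -1.08 (without arthritic wild type) to 0.049 (without healthy wild type), and was 0.024 without the arthritic knockout.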
